A study of Mus musculus with 12 samples.

Results

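The genes described are 44 genes of DNA replication and mitosis, 26 of them for replication and 18 for mitosis, among 19937 genes with a probe set of their own on an Affymetrix whole-transcript array. They were chosen by name, with earlier results of these data known. For each, the brightest probe set naming that gene alone was read. A probe set was taken for 43 of the 44, and the transcript level of Ccnb1 was not analysed here. All 43 lay above the limit for dim genes, so none was lost to that filter.

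RNA came from the small intestine of male wild-type FVB mice, with an age of 8 weeks in the labels. For 8 weeks, 6 mice ate a diet poor in polyunsaturated relative to saturated fat (the low P/S diet) and 6 ate a control high-fat diet, and each array is labelled as 1 biological replicate. The series title ties the diet to excretion of cholesterol through the intestine. The labels give neither the segment of intestine, nor the time of dissection, nor the time of the last meal.

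The lining of the small intestine is among the fastest renewing tissues of the body. Stem cells at the crypt base feed a zone of rapidly dividing cells, which leave the cycle and differentiate as they move onto the villus, so transcripts of replication and mitosis in this tissue come largely from crypts. Replication genes are switched on late in G1 and in S phase by E2F factors, which the retinoblastoma family of pocket proteins holds back. Mitotic genes are switched on later, in G2 and M phase, through promoter elements named CHR and CCAAT, which are read by the MuvB complex with its partners and by the factor NF-Y.

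Some of these elements can be seen in the promoters of 5 members whose intensity differed between the diets, chosen as examples. The 5 stretches are the last 150 bases before the annotated start in RefSeq (GRCm38.p6), read 5′ to 3′ on the strand of the gene. Capitals mark words found on either strand. The E2F words searched were TTCCCGC and its variants with other inner letters, namely TTGGCGC, then also TTCGCGC, and last the word TTGCCGC. The CHR word was TTTGAA, and the CCAAT box is spelled by its name. Mcm2, the member with the greatest difference, lies on the minus strand at chr6:88898781-88898930, Mcm6 on the minus strand at chr1:128359706-128359855 and Rrm1 on the plus strand at chr7:102441545-102441694. The mitotic genes Cdk1 (minus strand, chr10:69352913-69353062) and Kif11 (plus strand, chr19:37376232-37376381) follow.
Mcm2: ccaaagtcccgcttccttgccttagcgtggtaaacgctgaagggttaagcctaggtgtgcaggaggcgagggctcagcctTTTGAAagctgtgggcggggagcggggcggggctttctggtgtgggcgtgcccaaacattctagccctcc
Mcm6: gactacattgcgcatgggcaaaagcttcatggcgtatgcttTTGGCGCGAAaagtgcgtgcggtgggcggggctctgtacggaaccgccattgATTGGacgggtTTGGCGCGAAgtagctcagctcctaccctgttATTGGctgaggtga
Rrm1: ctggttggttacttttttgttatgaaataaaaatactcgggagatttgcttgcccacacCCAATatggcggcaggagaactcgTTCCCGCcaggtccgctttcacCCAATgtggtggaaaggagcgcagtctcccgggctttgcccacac
Cdk1: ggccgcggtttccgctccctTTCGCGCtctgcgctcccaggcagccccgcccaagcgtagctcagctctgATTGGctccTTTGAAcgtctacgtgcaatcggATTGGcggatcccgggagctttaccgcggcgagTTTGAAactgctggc
Kif11: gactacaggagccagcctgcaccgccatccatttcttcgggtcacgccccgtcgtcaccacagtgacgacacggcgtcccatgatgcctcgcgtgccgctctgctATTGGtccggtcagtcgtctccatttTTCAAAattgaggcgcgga

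Mcm6 holds overlapping E2F words in 2 places, starting 109 and 46 bases before the start. Cdk1 has a CHR word 71 and another 15 bases before the start, each near a CCAAT box, and Kif11 has a CHR word at 19 and a CCAAT box at 45 bases. Mcm2 held no E2F word in this window, and its marked word is a CHR word, 70 bases before the start. Of 44 members, 38 had an entry in the promoter table, and the words were counted in the 250 bases before the start. An E2F word was present in 8 of 22 replication promoters (36.4%) and 3 of 16 mitosis promoters (18.8%), against 7.97% of all 27025 promoters in the table. A CHR word was present in 3 of 22 replication promoters (13.6%) and 7 of 16 mitosis promoters (43.8%), against 16.3% of all. A CCAAT box was present in 54.5% of replication and 87.5% of mitosis promoters, against 34.5% of all. Rfc4 and Tyms, whose intensity also differed between the diets, held none of these words. A word in a promoter is a description of its letters and not a bound site.

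On the low P/S diet, 26 of the 43 measured members had more transcript (limma, adjusted p under 0.05), and 0 had less. By the same test, 17.8% of all 11962 genes tested were higher and 7.87% lower. The median log2 difference (low P/S less control) was 0.25 over the members and 0.02 over all genes. The differences were modest: apart from Mcm2 at 1.82-fold, the members that passed were between 1.15-fold and 1.36-fold higher. Some members lay near the limit for dim genes (85.6), among them Gins1 at 74.8 to 99.9 and Ttk at 78.4 to 128. Cenpe, at 88.0 to 168, was 1.31-fold higher. Whether a low intensity bears on the size of the differences was not tested. In 42 of 43 members the difference was positive, as it was in 55.8% of all genes. The arrays of the diets overlapped for most members, and every low P/S array lay above every control array for 2 of 43 (4.65%), against 6.86% of all genes. With the probe set of Pcna that is numbered among genes of its own chromosome, described with that gene, 27 members passed and Pcna joined those without overlap. For 0 members every low P/S array lay below every control array, against 3.9% of all genes. When each gene was tested on its own spread alone, with none borrowed from other genes, 10 members passed: Mcm2, Mcm3, Mcm5, Mcm7, Cdc45, Fen1, Mki67, Bub1, Plk1 and Aurkb, when 13.4% of all genes were higher. In these samples of whole tissue, a greater share of dividing cells in the sample and more of these transcripts per dividing cell cannot be told apart.

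**Figure D1:**
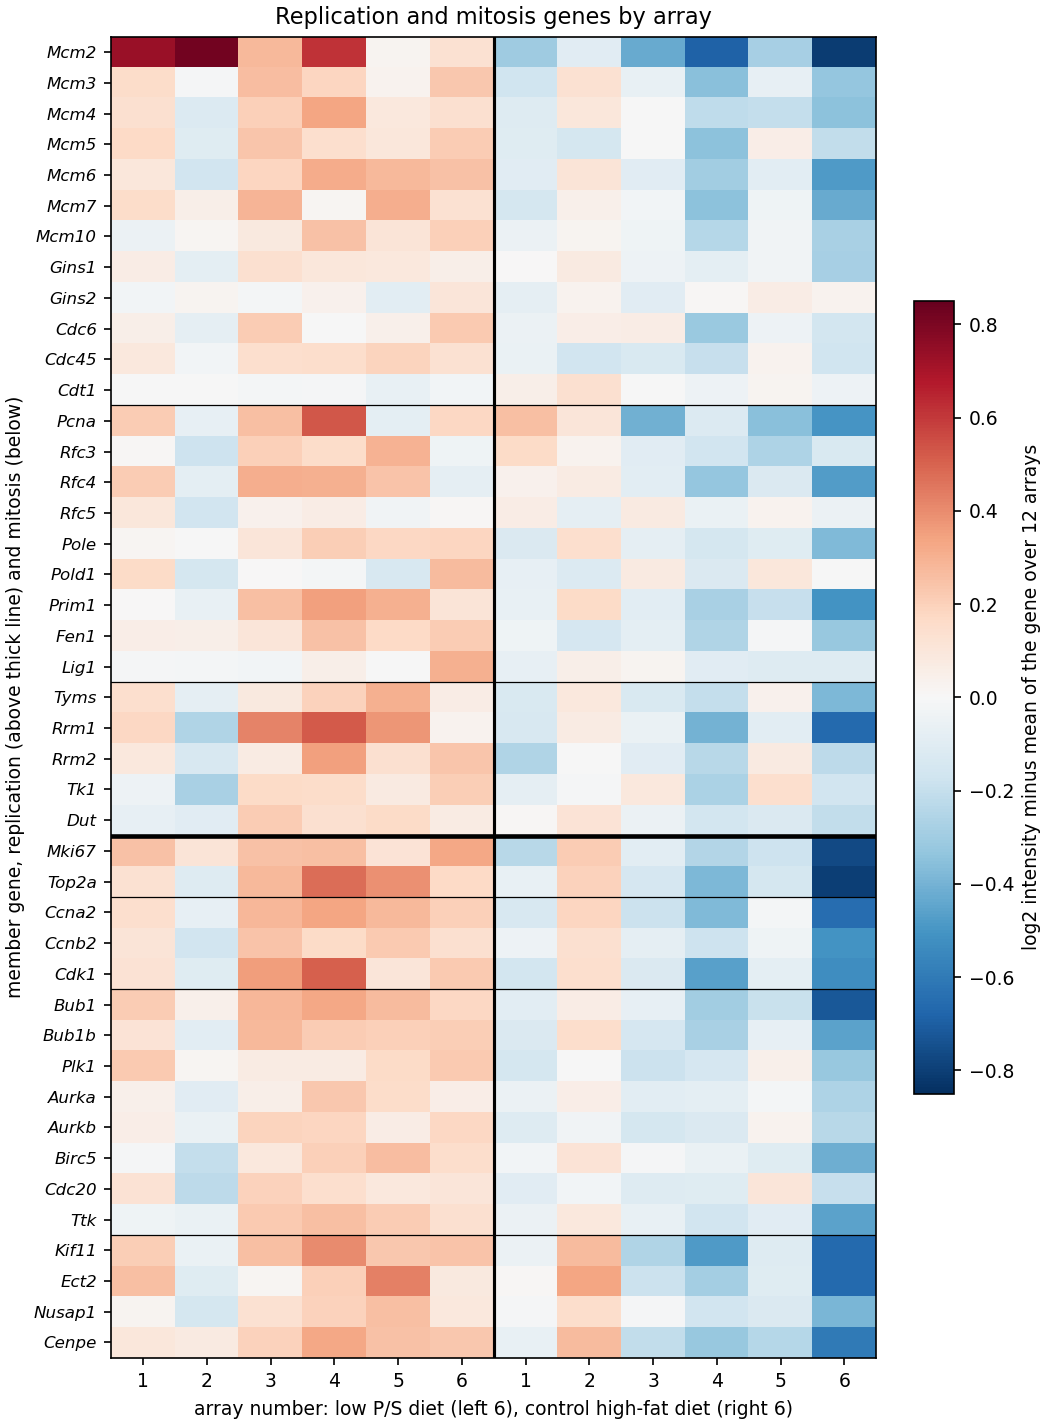
Log2 intensity of 43 members on each array (colour, as deviation from the mean of the gene over 12 arrays), with the 6 low P/S arrays left of the 6 control arrays and thin lines between the roles. Most members are above their mean on low P/S arrays 1 and 3 to 6 and below it on control arrays 4 and 6, while low P/S array 2 is low and control array 2 high for their diets.

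**Figure D2:**
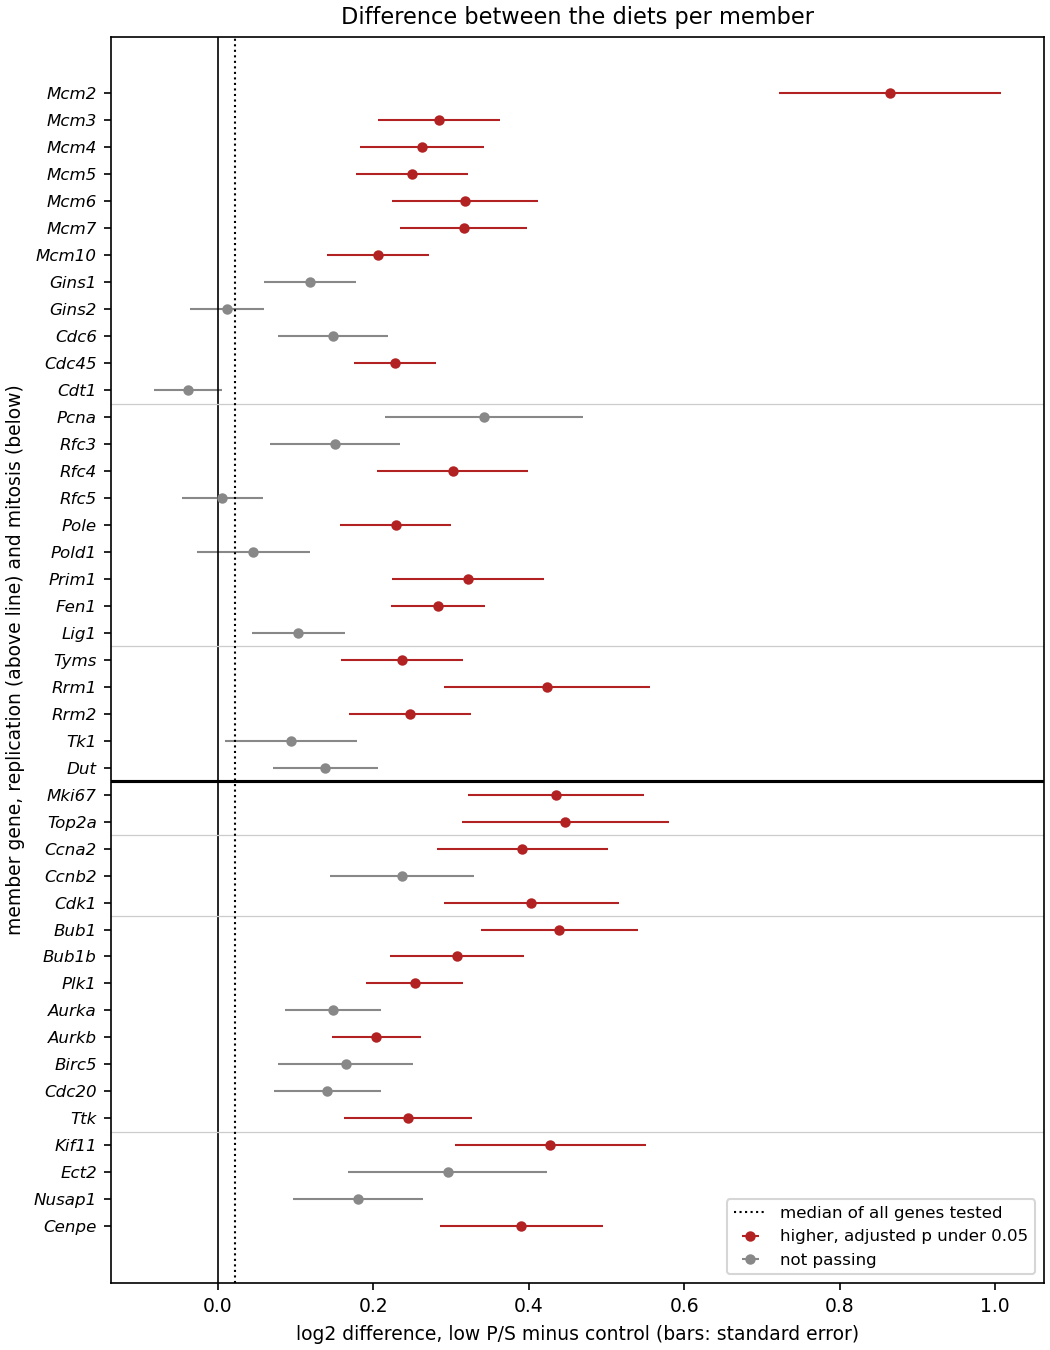
Difference between the diets for each member (points, low P/S minus control, log2 scale) with the standard error from limma (bars), coloured by whether the adjusted p was under 0.05. The 26 coloured members lie to the right of 0, and Mcm2 stands apart at 0.86.

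The arrays differed within each diet in a way that most members shared. Control array 6 was the lowest of all 12 arrays for 31 of 43 members. Low P/S array 4 was the highest of all 12 for 17 members. Low P/S array 2 was the lowest of its diet for 36 members, and control array 2 was the highest of its diet for 29. The mean deviation of each array from the gene means, on the log2 scale, was 0.11, -0.06, 0.18, 0.23, 0.16 and 0.15 on low P/S arrays 1 to 6. On control arrays 1 to 6 it was -0.07, 0.07, -0.09, -0.23, -0.07 and -0.38. Control array 2 lay above low P/S array 2, so the diets overlapped in this mean. Over all genes tested the same mean ran from -0.02 to 0.05 on low P/S arrays and from -0.06 to 0.03 on control arrays. The number of members called higher was 30 without low P/S array 2, when 16.2% of all genes were higher, and 30 without control array 2, when 19% were. It was 16 without low P/S array 4 and 17 without control array 6, when 13.5% of all genes were higher in each case, and 15 without control array 4, when 14.4% were. No member was called lower in any of these fits.

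The MCM proteins form the ring that unwinds DNA at the fork, and all 6 genes of the ring, Mcm2 to Mcm7, rose. Mcm2 (probe set 10546163) had intensities of 421, 447, 305, 386, 256 and 276 on low P/S arrays 1 to 6, against 205, 236, 188, 157, 208 and 145 on control arrays 1 to 6. Every low P/S value lay above every control value, and the difference was 0.86 ± 0.14 (limma standard error, adjusted p = 0.000553), or 1.82-fold. The lowest, median and highest intensities of Mcm7 were 260, 284 and 318 on the low P/S diet, against 192, 241 and 265 on the control diet. Mcm7 was 1.24-fold higher (0.32 ± 0.08, adjusted p = 0.0101), with 5 low P/S arrays above every control array. Mcm6 was 1.25-fold, Mcm3 1.22-fold, Mcm4 1.20-fold and Mcm5 1.19-fold higher (adjusted p = 0.0209, 0.0141, 0.0233 and 0.0180), each with overlapping diets. The call of Mcm6 ended without control array 4 (adjusted p = 0.0508), and that of Mcm4 without low P/S array 4 or control array 4 or 6 (highest adjusted p = 0.0568).

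Mcm2 also differed from its partners in the order of the arrays. Low P/S array 2, where the mean deviation of Mcm3 to Mcm7 was -0.07, had the highest Mcm2 of all, with a deviation of 0.82. The excess of Mcm2 over the mean of those 5 subunits, each as deviation from its own mean, was 0.59, 0.89, 0.04, 0.41, -0.14 and -0.06 on low P/S arrays 1 to 6, against -0.17, -0.14, -0.39, -0.37, -0.21 and -0.44 on control arrays 1 to 6. Low P/S arrays 1, 2 and 4 carried most of it, and on low P/S arrays 5 and 6 Mcm2 deviated less than the mean of the other subunits. This excess was seen in the data before it was computed, and it was not tested.

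**Figure D3:**
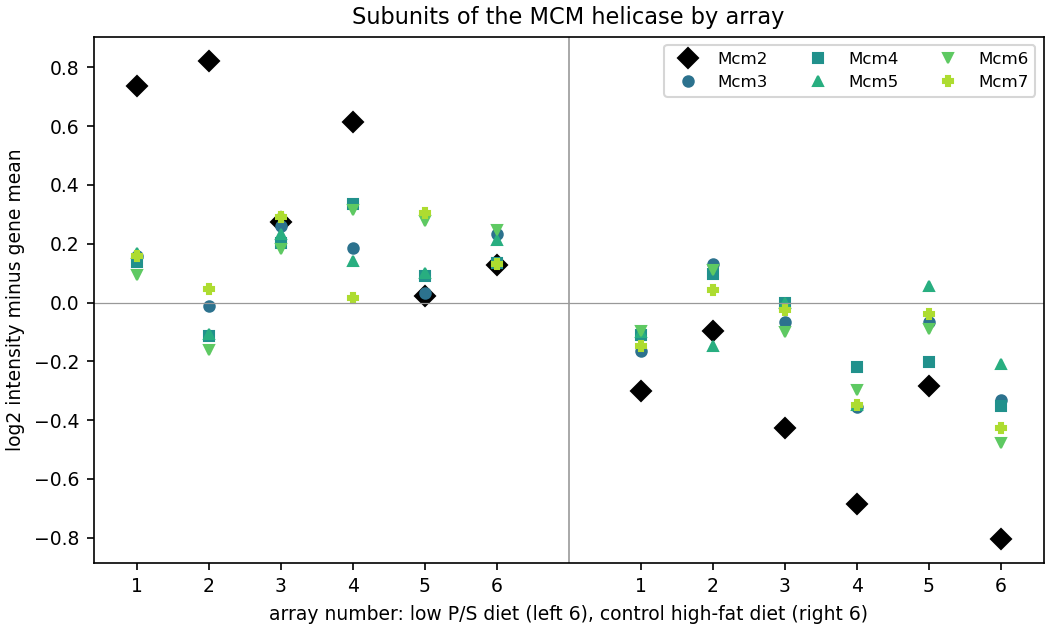
Log2 intensity of Mcm2 (black diamonds) and of Mcm3 to Mcm7 (coloured symbols) on each array, as deviation from the mean of each gene over 12 arrays, low P/S arrays on the left and control arrays on the right. Mcm2 is far above the other subunits on low P/S arrays 1, 2 and 4 and below them on every control array except the second, where Mcm5 is lower still.

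Genes that load and start the helicase moved unevenly. Cdc45, whose protein joins MCM and GINS in the active helicase, was between 151 and 175 on the low P/S diet (median 169), against 134 to 157 on the control diet (median 138). It rose 1.17-fold (0.23 ± 0.05, adjusted p = 0.00497), with 5 low P/S arrays above every control array. Mcm10, which helps start the fork, was 1.15-fold higher (adjusted p = 0.0292), a call that ended without low P/S array 4, 5 or 6 or control array 4 or 6 (highest adjusted p = 0.0714) and with the replicate number as a block (adjusted p = 0.0558). The loading factor gene Cdc6 differed by 0.15 ± 0.07 and did not pass (adjusted p = 0.138). Its partner Cdt1 did not pass either (-0.04 ± 0.04, adjusted p = 0.541). Cdt1, which is known to be removed at the protein level once S phase begins, lay between 175 and 183 on the low P/S diet, against 177 to 201 on the control diet, and was the member with a negative difference. Of the GINS genes, Gins1 had a difference of 0.12 ± 0.06 (adjusted p = 0.153) and Gins2 of 0.01 ± 0.05 (adjusted p = 0.879). In all, 8 of the 12 genes of loading and unwinding rose, when 17.8% of all genes were higher.

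Of 9 genes for polymerases, the sliding clamp and the lagging strand, 4 rose and 5 did not pass, when 17.8% of all genes were higher. Fen1, the nuclease that trims the flaps of Okazaki fragments, had a lowest, median and highest intensity of 168, 178 and 192 on the low P/S diet, against 129, 150 and 160 on the control diet. The diets did not overlap, and Fen1 was 1.22-fold higher (0.28 ± 0.06, adjusted p = 0.00328). Lig1, which seals the same fragments, did not pass (0.10 ± 0.06, adjusted p = 0.213). The primase gene Prim1 was 1.25-fold, the clamp loader gene Rfc4 1.23-fold and the leading strand polymerase gene Pole 1.17-fold higher (adjusted p = 0.0241, 0.0314 and 0.0266). These 3 calls each ended without low P/S array 4 or 5 or control array 4 or 6, and also without low P/S array 1 or 3 for Rfc4 and without low P/S array 6 for Pole (highest adjusted p = 0.0569 for Prim1, 0.0747 for Rfc4 and 0.0594 for Pole). With quantile normalization Rfc4 did not pass (adjusted p = 0.0601). The other clamp loader genes Rfc3 (0.15 ± 0.08, adjusted p = 0.195) and Rfc5 (0.01 ± 0.05, adjusted p = 0.951) and the polymerase delta gene Pold1 (0.05 ± 0.07, adjusted p = 0.677) did not pass.

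Pcna, which encodes the sliding clamp, was named by 2 probe sets that gave different calls. Probe set numbers follow the chromosomes: for 35 of 37 members with a known chromosome, most of the 20 genes nearest in number lay on the chromosome of the member, and Pcna and Tk1 were the exceptions. Pcna lies on chromosome 2, but 19 of the 20 neighbours of its brightest probe set lay on chromosome 19 and 0 on chromosome 2. Whether that probe set reads Pcna or a similar sequence elsewhere was not settled. This probe set (10461391) read 1536 at the lowest, 1869 in the median and 2350 at the highest on the low P/S diet, against 1153, 1385 and 1944 on the control diet. The difference of 0.34 ± 0.13 did not pass (adjusted p = 0.0593), and control array 1, at the highest control value, exceeded 5 of the 6 low P/S arrays. Leaving out control array 1 made it pass (0.43, adjusted p = 0.0148). It also passed when control array 2 or low P/S array 2 or 5 was left out (highest adjusted p = 0.0439) and with the replicate number as a block (adjusted p = 0.0397). The dimmer probe set (10487930), whose 20 neighbours all lay on chromosome 2, read 1389 at the lowest, 1543 in the median and 1768 at the highest on the low P/S diet, against 1029, 1190 and 1327 on the control diet. The diets did not overlap, and the difference of 0.40 ± 0.07 passed (adjusted p = 0.000811), in a fit chosen after seeing the data. The mean of both probe sets passed (0.37, adjusted p = 0.00827).

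Of 5 genes that supply deoxynucleotides, 3 rose, when 17.8% of all genes were higher. Rrm1, the large subunit of ribonucleotide reductase, read 354 at the lowest, 512 in the median and 607 at the highest on the low P/S diet, against 267, 390 and 444 on the control diet. It was 1.34-fold higher (0.42 ± 0.13, adjusted p = 0.0274), although low P/S array 2 lay below 4 of the control arrays. The small subunit gene Rrm2 was 1.19-fold and the thymidylate synthase gene Tyms 1.18-fold higher (adjusted p = 0.0295 and 0.0351). These 3 calls were close to the threshold. Each ended without low P/S array 4 or 5, without control array 4 or 6 and with quantile normalization, and in addition without low P/S array 3 for Rrm1, low P/S array 6 or control array 1 for Rrm2, and low P/S array 1 or control array 1 or 3 for Tyms. The highest adjusted p was 0.0646 for Rrm1, 0.0704 for Rrm2 and 0.0811 for Tyms without an array, and 0.0519, 0.0513 and 0.0630 with quantile normalization. Dut, which clears dUTP, and the thymidine kinase gene Tk1 did not pass (0.14 ± 0.07, adjusted p = 0.144, and 0.09 ± 0.09, adjusted p = 0.441). For Tk1, on chromosome 11, the brightest probe set (10582809) had 15 of 20 neighbours on chromosome 8 and 0 on chromosome 11, so whether it reads Tk1 was not settled. The dimmer probe set (10393431), with all 20 neighbours on chromosome 11, had a difference of the other sign that did not pass either (-0.06 ± 0.07, adjusted p = 0.603).

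Among the mitosis members 11 of 17 rose, with a median difference of 0.30, against 15 of 26 replication members with a median of 0.23. All genes tested had a median of 0.02, with 17.8% higher and 7.87% lower. Mki67, which encodes the proliferation antigen Ki-67 that coats mitotic chromosomes, read 380 at the lowest, 418 in the median and 444 at the highest on the low P/S diet, against 207, 306 and 410 on the control diet. It was 1.35-fold higher (0.43 ± 0.11, adjusted p = 0.0105), with control array 2 alone reaching into the low P/S range. Top2a, the topoisomerase that untangles sister chromosomes, read 405, 510 and 607 in the same order on the low P/S diet, against 250, 394 and 500 on the control diet, and was 1.36-fold higher (0.45 ± 0.13, adjusted p = 0.0218). The Top2a call ended without low P/S array 4 or control array 4 (highest adjusted p = 0.0512), and a second probe set (10390746), dim at 36.1 to 51.5 over all arrays, had a difference of 0.12.

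Cdk1, the kinase that drives entry into mitosis, read 236 at the lowest, 286 in the median and 360 at the highest on the low P/S diet, against 176, 230 and 281 on the control diet. It was 1.32-fold higher (0.40 ± 0.11, adjusted p = 0.0155). Its S and G2 phase partner Ccna2 (cyclin A2) was 1.31-fold higher (adjusted p = 0.0161). Ccnb2 (cyclin B2) did not pass (0.24 ± 0.09, adjusted p = 0.0705), but did without low P/S array 2 or control array 2 (adjusted p = 0.0249 and 0.0271).

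Of 8 genes of mitotic kinases and the checkpoint that delays anaphase, 5 rose, when 17.8% of all genes were higher. The checkpoint kinase gene Bub1 read 151 at the lowest, 173 in the median and 184 at the highest on the low P/S diet, against 88.7, 133 and 153 on the control diet. It was 1.36-fold higher (0.44 ± 0.10, adjusted p = 0.00517), with 5 low P/S arrays above every control array. Bub1b, a component of the same checkpoint, was 1.24-fold higher (adjusted p = 0.0159), and Plk1, a kinase of spindle assembly and mitotic exit, 1.19-fold higher (adjusted p = 0.00787). Aurkb, the kinase of the chromosomal passenger complex, was 1.15-fold higher (adjusted p = 0.0165), while Birc5 (survivin), of the same complex, did not pass (0.16 ± 0.09, adjusted p = 0.176). The checkpoint kinase gene Ttk was 1.18-fold higher (adjusted p = 0.0383), a call that ended without low P/S array 3, 4, 5 or 6 or control array 3, 4, 5 or 6 (highest adjusted p = 0.0835). The centrosomal kinase gene Aurka (0.15 ± 0.06, adjusted p = 0.0890) and Cdc20, the activator of the anaphase-promoting complex (0.14 ± 0.07, adjusted p = 0.143), did not pass. Without low P/S array 2 both did (adjusted p = 0.0394 and 0.0164).

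Of 4 spindle, kinetochore and cytokinesis genes, 2 rose, when 17.8% of all genes were higher. The spindle motor gene Kif11 read 201 at the lowest, 247 in the median and 277 at the highest on the low P/S diet, against 132, 185 and 253 on the control diet, and was 1.35-fold higher (0.43 ± 0.12, adjusted p = 0.0179). The kinetochore motor gene Cenpe read 141, 155 and 168 in the same order on the low P/S diet, against 88.0, 114 and 161 on the control diet, and was 1.31-fold higher (0.39 ± 0.10, adjusted p = 0.0125). For both genes control array 2 was the highest control array, and 1 low P/S array exceeded it for Kif11 and 1 for Cenpe. Ect2, which triggers cytokinesis, and Nusap1, which bundles spindle microtubules, did not pass (0.30 ± 0.13, adjusted p = 0.101, and 0.18 ± 0.08, adjusted p = 0.124). Without control array 2 both passed (adjusted p = 0.0167 and 0.0446).

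Replication and mitosis genes ordered the arrays in nearly the same way. The mean deviation of the mitosis members was 0.15 ± 0.12 on the low P/S diet and -0.15 ± 0.21 on the control diet (SD, n = 6 each), a difference of 0.30. For the replication members it was 0.11 ± 0.09 on the low P/S diet and -0.11 ± 0.12 on the control diet, a difference of 0.23. The mitosis mean less the replication mean lay between -0.03 and 0.10 on low P/S arrays and between -0.22 and 0.11 on control arrays. The diets overlapped in it, and control array 6 was its lowest value. Whether the diets moved mitosis genes more than replication genes was not tested.

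**Figure D4:**
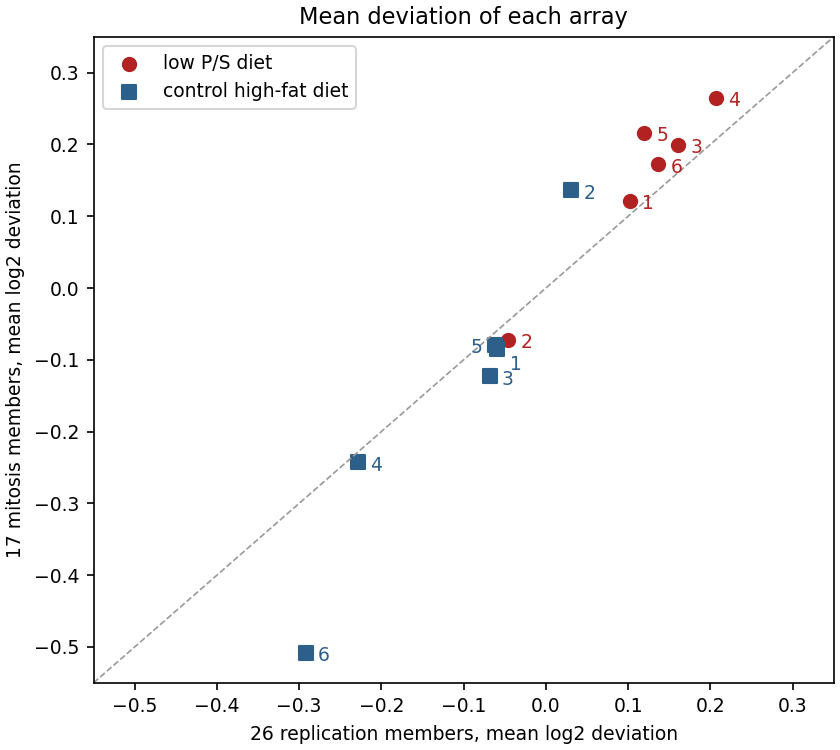
Mean log2 deviation of 26 replication members (horizontal) and 17 mitosis members (vertical) on each array, low P/S as circles and control as squares, numbered by array, with a dashed line where both are equal. The points lie along the line, control array 6 is lowest at -0.29 and -0.51, and low P/S array 2 lies among the control arrays.

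Further genes of the same processes followed the members to differing degrees. Among all genes, 17.8% were higher and 7.87% lower. Of 39 tested genes in a list of other replication genes, 12 rose (30.8%) and 1 fell (2.56%), and their median difference was 0.12. Those of smallest p were Pold2, a subunit of polymerase delta (1.22-fold, adjusted p = 0.00279), the thymidylate kinase gene Dtymk (1.23-fold, adjusted p = 0.00409), the fork protection gene Tipin (1.27-fold, adjusted p = 0.00736) and Rpa3 of the complex that binds single-stranded DNA (1.22-fold, adjusted p = 0.00827). For Pold2 every low P/S array, at 217 to 248, lay above every control array, at 168 to 211. The gene that fell was Mcmbp, an MCM-binding protein gene (-0.15 ± 0.05, adjusted p = 0.0309), and this call ended with median centring, with a trended robust prior and without low P/S array 1, 2 or 4 or control array 1, 3 or 4 (highest adjusted p = 0.0769 without an array).

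Of 51 tested genes in a list of other mitosis genes, 28 rose (54.9%) and 0 fell, with a median difference of 0.22. By the same test, 17.8% of all genes were higher and 7.87% lower. In the list 39 genes had an unadjusted limma p under 0.05, as had 4556 of all 11962 genes. The list was led by Nek2, a centrosomal kinase gene (1.25-fold, adjusted p = 0.00285), Cks2, of a Cdk-binding subunit (1.28-fold, adjusted p = 0.00411), the kinetochore gene Spc25 (1.39-fold, adjusted p = 0.00512) and Cenpa, the histone variant of centromeres (1.27-fold, adjusted p = 0.00556). Without low P/S array 3, 4 or 5 or control array 4 or 6, the number that rose was between 14 and 18. In these fits 13.5% to 18% of all genes were higher.

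Genes that control the cycle moved in both directions. Of 31 tested, 9 rose (29.0%), 4 fell (12.9%) and 18 did not pass, with a median difference of 0.09. Over all genes, 17.8% were higher and 7.87% lower. The kinase genes Cdk4 and Cdk6 and the cyclin gene Ccnd2, which act together in G1, were 1.21-fold, 1.19-fold and 1.23-fold higher (adjusted p = 0.00848, 0.0308 and 0.0148). The Cdk6 call ended without any 1 of 7 arrays, namely low P/S arrays 1, 4, 5 and 6 and control arrays 3, 5 and 6 (highest adjusted p = 0.0729) and when tested on its own spread alone (adjusted p = 0.0762), and the Ccnd2 call with quantile normalization (adjusted p = 0.0789). Ccnd1 did not pass (0.10 ± 0.06, adjusted p = 0.212). Cdc25a, a phosphatase that activates cyclin-dependent kinases, was 1.18-fold higher (adjusted p = 0.00813).

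Of the E2F factors and their partners, E2f2, E2f3, E2f6, E2f8 and Tfdp1 rose. E2f2, an activator, read 134 at the lowest, 144 in the median and 162 at the highest on the low P/S diet, against 116, 124 and 131 on the control diet, without overlap (0.25 ± 0.05, adjusted p = 0.00389). E2f3, also an activator, was 1.23-fold higher (adjusted p = 0.0116), the repressor gene E2f6 1.18-fold (adjusted p = 0.00499) and the dimerization partner gene Tfdp1 1.16-fold (adjusted p = 0.00830). The repressor gene E2f8 was 1.15-fold higher (adjusted p = 0.0397), a call that ended without any 1 of 9 of the arrays, all but low P/S arrays 1 and 3 and control array 2 (highest adjusted p = 0.0845), with no filter on dim genes (adjusted p = 0.0503) and when tested on its own spread alone (adjusted p = 0.0765). E2f1 was too dim to test, at a geometric mean of 81.2 on the low P/S diet and 82.7 on the control diet. E2f4, E2f5 and E2f7 did not pass (adjusted p = 0.134, 0.961 and 0.972), and neither did Foxm1 and Mybl2, activators of mitotic genes (adjusted p = 0.184 and 0.980), nor Myc (adjusted p = 0.387).

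The pocket protein genes fell. Rb1, the retinoblastoma gene, read 564 at the lowest, 666 in the median and 710 at the highest on the low P/S diet, against 803, 860 and 951 on the control diet. The diets did not overlap, and Rb1 was 1.34-fold lower (-0.42 ± 0.06, adjusted p = 0.000297). Rbl2 (p130) read 361 to 436 on the low P/S diet, against 454 to 548 on the control diet, and was 1.24-fold lower (-0.31 ± 0.06, adjusted p = 0.00147). Rbl1 (p107) was 1.13-fold lower (-0.18 ± 0.06, adjusted p = 0.0360), but this call ended with median centring (adjusted p = 0.0642). It also ended without any 1 of low P/S arrays 1 to 4 or control arrays 1, 2, 3 and 5 (highest adjusted p = 0.0772), without control arrays 1 and 2 together (-0.13, adjusted p = 0.123) and when tested on its own spread alone (adjusted p = 0.0549).

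Wee1, a kinase that restrains Cdk1 until a cell is ready for mitosis, had the greatest difference among the control genes. It read 237 at the lowest, 275 in the median and 324 at the highest on the low P/S diet, against 392, 429 and 525 on the control diet, without overlap. It was 1.61-fold lower (-0.69 ± 0.09, adjusted p = 5.37e-05). Pkmyt1, the other kinase with this role, did not pass (0.05 ± 0.05, adjusted p = 0.436). The inhibitor gene Cdkn1b (p27) did not pass (-0.13 ± 0.05, adjusted p = 0.0692), but quantile normalization made it pass (-0.20, adjusted p = 0.00828). So did leaving out low P/S array 5 (adjusted p = 0.0354) and averaging its probe sets.

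**Figure D5:**
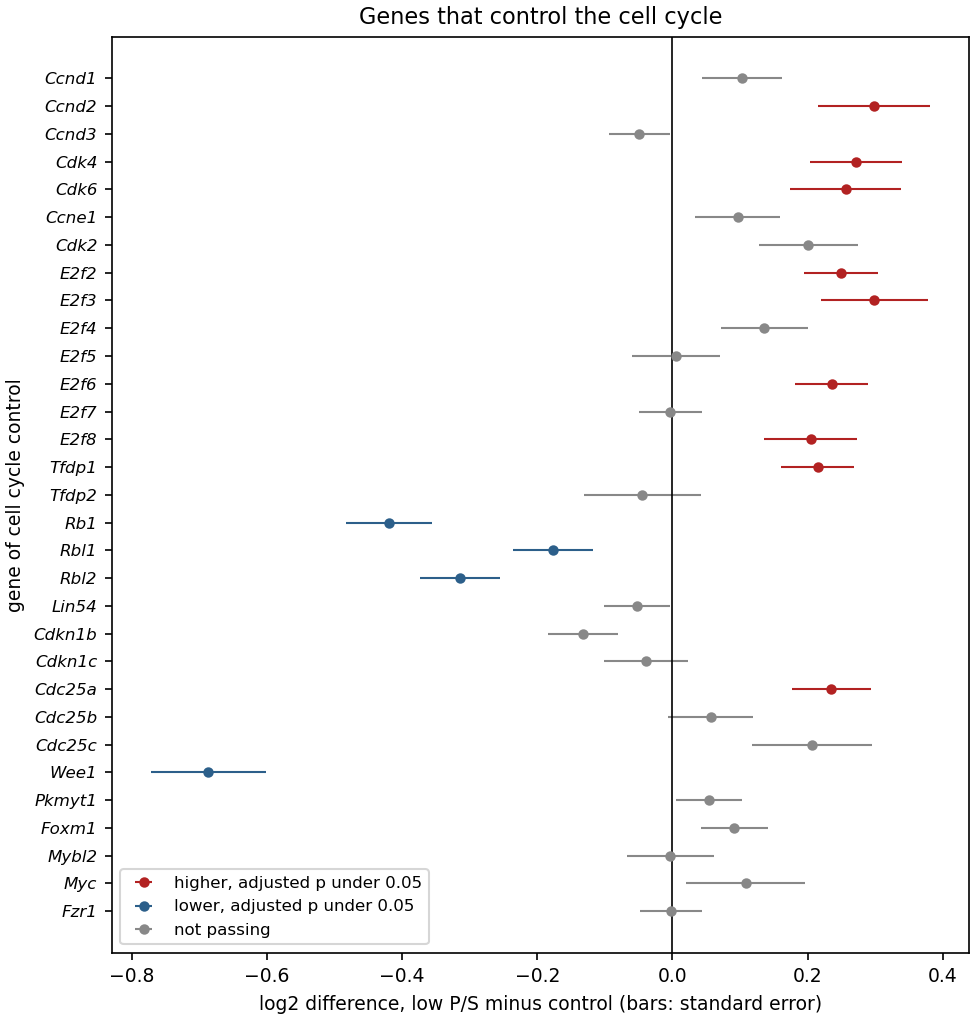
Difference between the diets for 31 genes that control the cell cycle (points, low P/S minus control, log2 scale) with the standard error from limma (bars), coloured by call. Of the genes that passed, Wee1, Rb1, Rbl2 and Rbl1 lie left of 0, and the 9 on the right lie between 0.20 and 0.30. Left of 0 lie 12 of the 31 genes, whether or not they passed.

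Markers of the tissue and of its other cells were read beside these results, and their part in the results was not tested. The enterocyte markers Vil1, Fabp1, Fabp2, Apoa4, Sis and Cdx2 were all measured above the limit for dim genes, as the label of small intestine requires. Of 12 enterocyte markers 2 rose and 3 fell, when 17.8% of all genes were higher and 7.87% lower. Anpep was 1.55-fold, Sis 1.29-fold and Vil1 1.23-fold lower (adjusted p = 5.07e-05, 0.00377 and 0.00269), each without overlap. Fabp1 was 1.16-fold and Cdx2 1.12-fold higher (adjusted p = 0.0481 and 0.0228). The summed intensity of the 12 markers was 67545 to 78703 on the low P/S diet and 71585 to 95465 on the control diet. Of 11 tested crypt stem cell markers 1 rose, the adhesion receptor gene Cd44 (1.29-fold, adjusted p = 0.00213), and 0 fell. Their summed intensity was 3731 to 4745 on the low P/S diet and 3563 to 4727 on the control diet. Olfm4 made up much of this sum, at 1595 to 2410 on the low P/S diet and 1535 to 2386 on the control diet. The stem cell gene Lgr5 did not pass (-0.14 ± 0.07, adjusted p = 0.159). The mean deviation of the tested crypt markers was lowest on control array 6, at -0.13, and next on low P/S array 2, at -0.10. It was highest on low P/S array 4, at 0.09. Between the diets it differed by 0.03, as it did over all genes tested.

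Secretory markers, which like dividing cells include residents of the crypt, were also low on control array 6. Of 6 goblet markers 2 rose and 0 fell (summed intensity 20417 to 24510 on the low P/S diet and 15113 to 21664 on the control diet), and their mean deviation on control array 6 was -0.44, the lowest of the 12 arrays. Of 6 Paneth markers 1 rose and 0 fell (20502 to 24970 on the low P/S diet and 18396 to 24135 on the control diet), with mean deviations of -0.31 on control array 4 and -0.29 on control array 6. Over all genes, 17.8% were higher and 7.87% lower. The mean deviation differed between the diets by 0.23 for goblet and 0.20 for Paneth markers. For all members this difference was 0.26, and over all genes tested it was 0.03. Dividing cells can also be lymphocytes. Of 8 measured markers of B cells and germinal centres 7 were dim and 0 passed (1 tested, Cd79b, 0.15, adjusted p = 0.477), and their summed intensity was 483 to 1043 on the low P/S diet, with the top value on array 3, and 489 to 533 on the control diet. Of 3 tested T cell markers 2 fell (summed 764 to 1074 on the low P/S diet and 935 to 1095 on the control diet, over 8 markers measured). No tested marker of smooth muscle (8 tested), red cells (2), exocrine pancreas (3) or adipose tissue (3) passed. An unadjusted limma p under 0.05 was seen for 0, 1, 1 and 2 of them, and for 4556 of all 11962 genes. Those markers were Tfrc of the red cell list (0.48), Cela2a of the pancreas list (-0.12), and Cidec (0.32) and Plin1 (-0.26) of the adipose list. The other tested red cell, pancreas and adipose markers were Slc4a1 (-0.09), Cela1 (0.03), Ctrb1 (-0.10) and Adipoq (-0.47). The summed intensity of smooth muscle markers was 5591 to 8303 on the low P/S diet and 7067 to 10336 on the control diet. Their mean deviation was highest on control array 4, at 0.40, and lowest on low P/S array 6, at -0.40. That of the tested T cell markers was highest on control array 4, at 0.31, and lowest on low P/S array 5, at -0.49. Whether this bears on the member calls that ended without control array 4 was not tested.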

How the data were processed

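The authors deposited array intensity values on a linear scale for 34760 probe sets and 12 arrays. Their summarization, normalization and any batch are not given in the sources used here. Per the labels' protocols, 500 ng of total RNA was labelled by a whole-transcript sense target kit without removal of ribosomal RNA. Array medians lay between 91.9 and 99.5, and the number of arrays and the spread between mice limit the precision (median standard error 0.061).

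Probe sets were named from the platform annotation: 21640 had 1 symbol, 1321 several and 11799 none. Symbols were checked through Entrez IDs (21553 matched). The brightest probe set per gene was kept, and genes under the 40th percentile of mean log2 level (intensity 85.6) were left out. Log2 values were compared with limma 3.58.1 in R 4.3.3, by diet alone, with Benjamini-Hochberg adjustment over 11962 genes (threshold 0.05). Tables and plots used Python 3.11.15, pandas 2.3.3, NumPy 2.4.6 and matplotlib 3.10.9. The steps were tested on simulated data.

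Members and lists were chosen with earlier results of these data known. All members and cycle control genes may be named, and of the other 2 lists the 4 of smallest p in each direction. Alternatives covered scaling, filters, probe sets, weights, variance priors, the replicate block, a pseudocount of 16 and left-out arrays. The design text calls the arrays biological replicates, and p-values refer to those mice.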

Additional observations from a re-analysis of the deposited data

Results flagged for a closer look

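In 4 of 86 sets of 6 arrays (43 members on each diet), 1 array stood apart from the other 5 by more than Dixon's 95% limit, which chance exceeds in about 1 of 20 sets. Cdc20 read 176 on low P/S array 2, with the next array at 219, and Ccnb2 read 263 on the same array, with the next at 319. That array was the lowest of its diet for 36 of 43 members. Lig1 read 233 on low P/S array 6, with the next at 196, and Cdt1 read 175 on low P/S array 5, with the next at 180.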

How the results depend on the processing

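No member reversed a call and none was called lower in the 24 alternatives. Of the 26 calls, 15 held without each array in turn and 10 held in all alternatives that tested them: Mcm2, Mcm3, Mcm5, Mcm7, Cdc45, Fen1, Mki67, Bub1, Plk1 and Aurkb. An ordinary variance per gene, which does not borrow spread from other genes, left 10 members (6 for replication, 4 for mitosis) and 13 other mitosis genes and ended the calls of Cdk6, E2f8 and Rbl1, with 13.4% of all genes higher. Leaving out 1 array gave 15 to 30 members higher, 6 to 16 for replication and 9 to 14 for mitosis, with 14 to 37 other mitosis genes. In these fits 13.5% to 19.7% of all genes were higher. Other replication genes that fell numbered 0 with median centring, with a trended robust prior and without control arrays 1 and 2, and 0 to 1 without 1 array. Without control arrays 1 and 2, 33 members were higher, when 22.7% of all genes were. With the replicate block 26 were, when 20.5% of all genes were, Mcm10 leaving and Pcna joining. With the dimmer probe sets of Pcna and Tk1, an alternative chosen after seeing the data, 27 were. The replicate numbers were not used as pairs in the main fit, since diet was the only factor in the labels. Of 6 same-numbered pairs, 3 had residual correlations over 0.1 (-0.11 to 0.42), and 4 of 12 arrays correlated best with their own number. Whether same-numbered arrays share a source of variation was not settled. The cause of these changes was not tested.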
